A study of Mus musculus with 8 samples.

Results

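The genes described here encode the machinery of neurotransmitter release and of vesicle fusion more widely, measured in mouse cortex on 8 Affymetrix arrays. They were picked by name, with earlier results of these data known. Taken were probe sets with 1 gene symbol that begins as the synaptotagmin (Syt), synapsin (Syn), SNAP, syntaxin (Stx) and VAMP families do. So were those of the syntaxin-binding proteins (Stxbp), complexins (Cplx), SV2, Rab3, synaptophysin (*Syp*) and synaptogyrin (Syngr) families. *Nsf* and the genes for its SNAP adaptors (*Napa*, *Napb*) were taken as well. These patterns found 57 of the 8251 genes named on the array, with 72 probe sets. Each gene is given by 1 probe set, the one with the highest mean signal, since 14 genes had several. The signal of 48 of the 57 genes was high enough for testing. The other 9 (*Rab3d*, *Snap23*, *Stx8*, *Syngr4*, *Syt10*, *Syt6*, *Syt8*, *Syt9* and *Vamp5*) lay below the filter.

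Cortex was taken from 2 WT and 2 S1/2-/- mice at ZT4 and from 2 mice of each genotype at ZT16, 1 array per mouse. ZT counts the hours after light onset in a 12-h light cycle, so that ZT4 fell in the light and ZT16 in the dark. The label gives C57/bl6 as the strain and 4 months as the age of all 8 mice. S1/2-/- mice lack SHARP1 (*Bhlhe41*) and SHARP2 (*Bhlhe40*) through null alleles of both genes in the germline. Both are repressors that bind DNA through a basic helix-loop-helix and act within the circadian clock. WT and double mutant mice came from crosses of double heterozygotes. The comparisons ask whether the vesicle genes differ between light and dark, between the genotypes, and in how the genotypes differ from light to dark.

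A synaptic vesicle fuses when the SNARE protein in its own membrane (VAMP2) zips together with 2 partners in the plasma membrane, syntaxin-1 and SNAP25. Synaptotagmin is the calcium sensor that triggers this step, and complexin holds and then assists the assembled SNAREs. NSF with its adaptors, the alpha- and beta-SNAP proteins, pulls the spent complexes apart, while synapsins tether the reserve of vesicles and Rab3 proteins bring vesicles to the release site. Related syntaxins and VAMPs do the same work on endosomes and the Golgi. In the cortex nearly all neurons depend on the synaptic members for communication.

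SHARP proteins and the clock activators they oppose bind the E-box CACGTG, and activity-dependent transcription often runs through the cAMP response element (CRE) TGACGTCA. Both motifs read the same on both strands, and neither holds the other. RefSeq promoter windows of build GRCm38.p6, which span the 250 bases before and the 50 bases after an annotated start, were found for 48 of the 57 genes, 66 windows in all. At least 1 E-box was present in 10 of these 66 windows (15.2%), against 7.15% of the 32851 windows of all genes. Windows of 1 gene can overlap and hold the same E-box. By gene, 8 of 48 (16.7%) had a window with an E-box, against 8.09% of all genes with a window. The genes concerned were *Napa*, *Nsf*, *Rab3il1*, *Stx6*, *Stxbp2*, *Sypl2*, *Syt6* and *Vamp4*. The CRE was present in 2 of 66 windows (3.03%, those of *Napa* and *Stxbp3*), against 1.79% of all windows. The median GC content of the windows was 62.5% for these genes and 52.7% for all. Windows are shown for genes to which the results return: *Napa*, *Nsf* and *Rab3il1* hold an E-box, while *Stx1a* and *Syp* hold neither motif in these 300 bases. Each runs 5′ to 3′ on the strand of its gene, in lower case, with E-boxes and the CRE in capitals.
Napa, chr7:16098330-16098629, plus strand: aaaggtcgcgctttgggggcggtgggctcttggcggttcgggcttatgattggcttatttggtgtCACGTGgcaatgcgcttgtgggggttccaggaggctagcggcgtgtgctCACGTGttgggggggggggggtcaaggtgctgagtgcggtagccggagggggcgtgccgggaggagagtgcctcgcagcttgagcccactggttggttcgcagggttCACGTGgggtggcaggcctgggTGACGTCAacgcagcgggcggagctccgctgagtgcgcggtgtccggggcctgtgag
Nsf, chr11:103954007-103954306, minus strand: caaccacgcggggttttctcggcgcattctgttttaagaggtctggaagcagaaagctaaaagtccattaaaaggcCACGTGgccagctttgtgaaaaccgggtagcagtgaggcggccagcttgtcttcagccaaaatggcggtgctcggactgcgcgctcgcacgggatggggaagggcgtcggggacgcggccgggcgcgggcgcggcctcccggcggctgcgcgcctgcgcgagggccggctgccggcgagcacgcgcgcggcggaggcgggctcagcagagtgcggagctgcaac
Rab3il1, chr19:10017944-10018243, plus strand: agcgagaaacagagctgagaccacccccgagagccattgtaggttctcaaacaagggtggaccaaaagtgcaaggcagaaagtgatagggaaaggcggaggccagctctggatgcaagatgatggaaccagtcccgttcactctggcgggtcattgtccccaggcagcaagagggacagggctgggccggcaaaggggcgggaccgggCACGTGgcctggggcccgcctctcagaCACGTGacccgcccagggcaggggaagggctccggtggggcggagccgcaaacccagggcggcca
Stx1a, chr5:135023232-135023531, plus strand: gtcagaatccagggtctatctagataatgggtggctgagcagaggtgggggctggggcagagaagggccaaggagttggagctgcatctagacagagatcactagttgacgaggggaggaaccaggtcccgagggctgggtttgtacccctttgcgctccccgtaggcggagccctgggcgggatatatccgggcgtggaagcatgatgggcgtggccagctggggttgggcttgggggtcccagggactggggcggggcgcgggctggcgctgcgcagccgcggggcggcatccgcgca
Syp, chrX:7638330-7638629, plus strand: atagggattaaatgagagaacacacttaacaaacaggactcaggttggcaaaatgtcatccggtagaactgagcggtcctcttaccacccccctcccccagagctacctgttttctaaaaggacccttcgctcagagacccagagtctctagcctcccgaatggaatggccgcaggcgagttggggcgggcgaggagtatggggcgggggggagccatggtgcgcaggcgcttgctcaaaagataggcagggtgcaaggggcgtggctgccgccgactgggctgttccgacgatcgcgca
*Rab3il1* had other windows too, some of them without an E-box. The window of *Napa* held 3 E-boxes and 1 CRE, the window of *Rab3il1* shown above 2 E-boxes and that of *Nsf* 1 E-box. These are matches of letters and were not measured as binding sites. Of the 7 genes with an E-box that were tested for expression, 2 were higher and 5 lower in S1/2-/- than in WT cortex over both times, with a median log2 difference of -0.041. Over all probe sets tested 3757 were higher and 3696 lower (median 0.002).

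Signals of different probe sets are not compared, since each probe set binds its target with its own strength. Of the genes taken as the core machinery of release, 14 were analysed here and all of them passed the filter: *Syt1*, *Syt2*, *Snap25*, *Stx1a*, *Vamp1*, *Vamp2*, *Cplx1*, *Cplx2*, *Nsf*, *Napa*, *Napb*, *Syp*, *Syn2* and *Rab3a*. The letter patterns also took in 5 Rab GTPases outside the Rab3 family (*Rab31*, *Rab33a*, *Rab33b*, *Rab34*, *Rab35*), the Rab3 regulators *Rab3il1* and *Rab3ip*, and *Snap91*, a clathrin adaptor of vesicle retrieval.

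**Figure D1:**
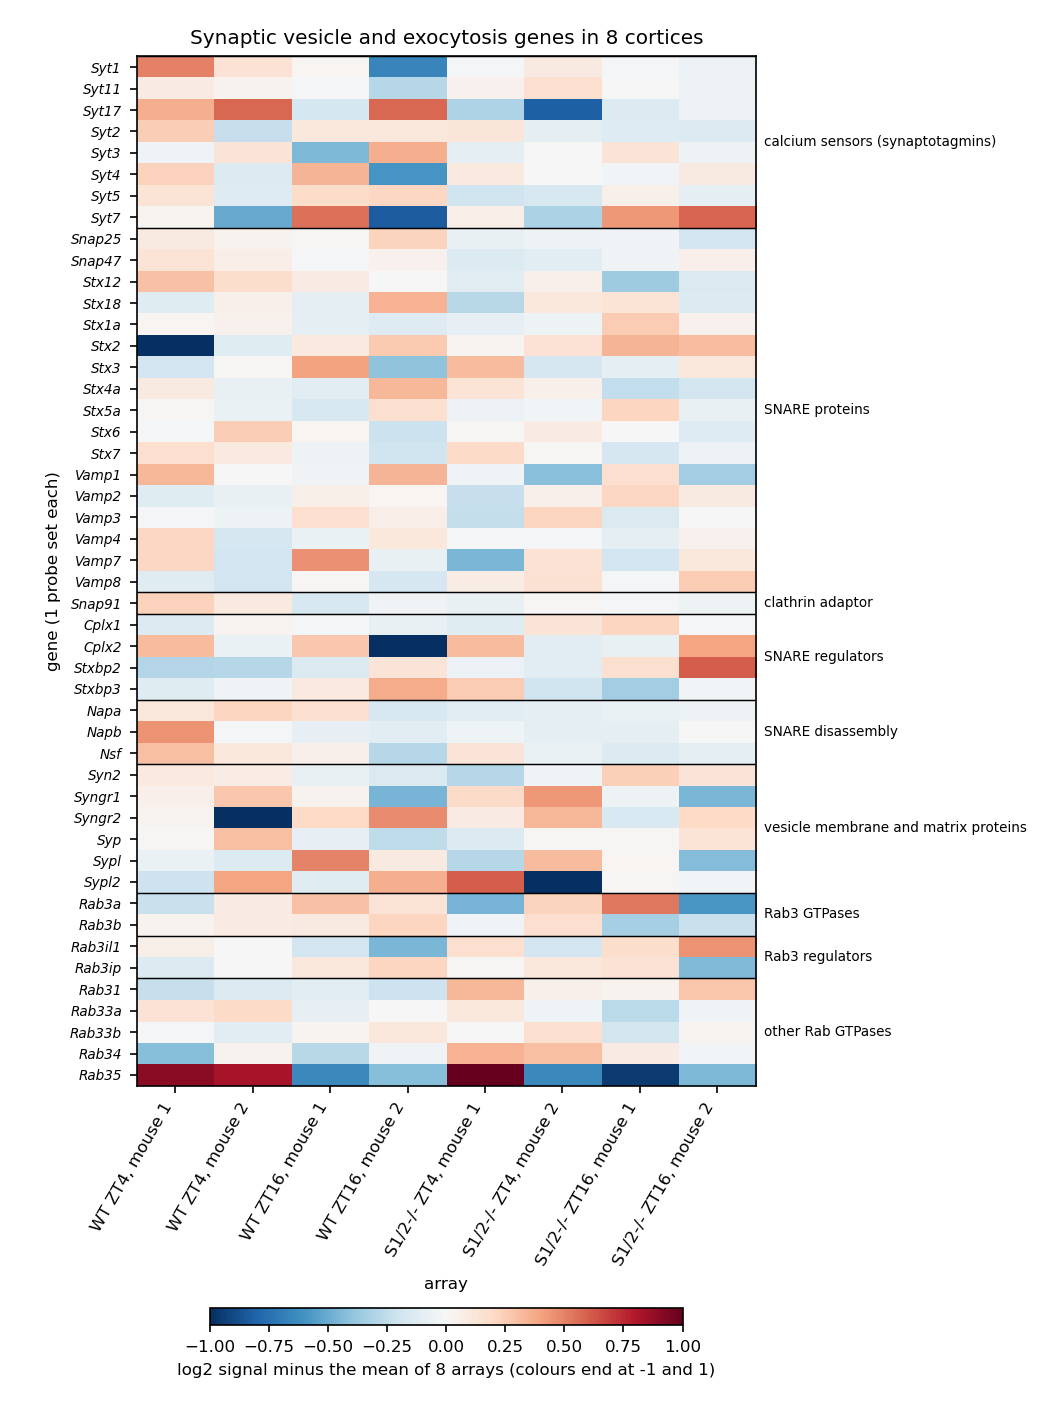
Each row is 1 of the 48 tested genes, grouped by role, and each column 1 cortex. The colour gives the log2 signal minus the mean of that gene over the 8 arrays, and ends at -1 and 1. Most cells are pale, and WT ZT16 mouse 2 stands out as low for *Syt1*, *Syt4*, *Syt7* and *Cplx2*.

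The deposited signals had a mean of 500 per array after 2% trimming, so their similar medians (186 to 206 per array) do not check the arrays. The groups were alike in replicate spread: the log2 signals of the 2 mice of a group correlated at 0.936 to 0.94 across probe sets. Of the deleted genes *Bhlhe40* was measured. At ZT4 its signal was 1074 and 983 in WT but 913 and 834 in S1/2-/- mice, and at ZT16 1189 and 1285 in WT but 1043 and 889 in S1/2-/- mice. Whether its probes lie in the deleted part is not given in the sources used, so this is no check of the genotype. Neuronal markers were strong in every sample, with a summed signal of 13 genes between 53790 and 60029. Markers of other tissue were not even across the mice. The summed signal of the striatal markers (5 tested of 13 listed, no tested gene at 0), among them *Penk* and *Drd2*, was 6076 and 6733 in WT mice at ZT4, and between 10092 and 18427 in the other 6 mice. That of the myelin genes (7 tested of 13 listed, no tested gene at 0) was 16840 to 22827 in WT and 26011 to 29562 in S1/2-/- mice. The 2 tested choroid plexus markers summed to 3103 to 4066 in both WT ZT16 mice and in S1/2-/- ZT4 mouse 1, and to 1331 to 1739 in the other 5 mice. In bulk tissue fewer cells of a type and less RNA per cell cannot be told apart.

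**Figure D2:**
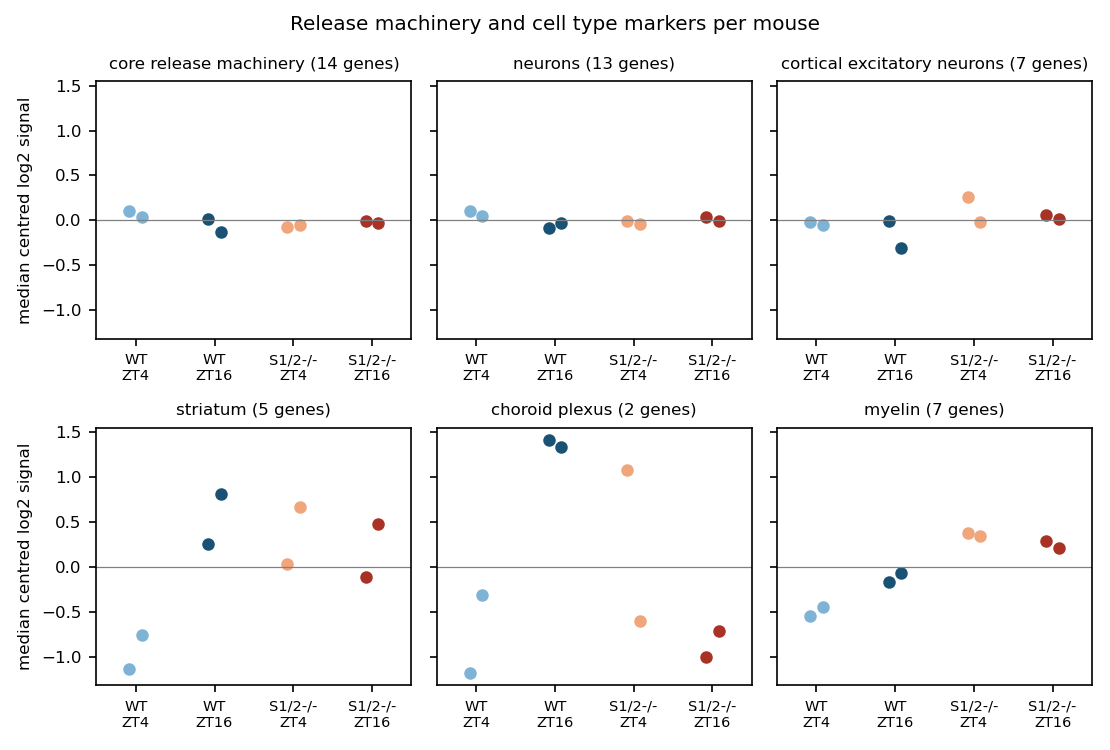
For each list and mouse, the point is the median over the genes of the log2 signal minus the mean of that gene over the 8 arrays. The 14 core genes of release lie between -0.124 and 0.104, while myelin markers are higher in all 4 S1/2-/- mice than in all 4 WT mice and striatal markers are lowest in both WT ZT4 mice.

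From ZT4 to ZT16 in WT cortex the genes of the core machinery leaned lower, while the other vesicle genes leaned slightly higher. No gene passed the test, which asked for a fold change over 1.5 and a limma adjusted p under 0.05 over all probe sets tested. Of the 14 core genes, 9 were lower and 5 higher at ZT16 (median log2 difference -0.152). Per mouse, the median of their log2 signals around the mean of each gene was 0.104 and 0.039 at ZT4 against 0.017 and -0.124 at ZT16. WT ZT16 mouse 1 thus lay close to WT ZT4 mouse 2, and the lean rested largely on WT ZT16 mouse 2. Genes measured in the same mice are not replicates. Of the other 34 genes 14 were lower and 20 higher (median 0.034). Over all 48 genes 23 were lower and 25 higher, and their median of 0.017 compares with -0.003 over all probe sets tested. Called genes numbered 0 of 48, against 0.0134% of all 7453 probe sets tested. At an unadjusted p under 0.05, 2 of 48 genes were higher and 6 lower, against 3.93% and 3.68% of all probe sets. With a fold over 1.5 required as well, 4 of 48 remained, against 3.45% of all probe sets. The mice of the 2 times did not overlap for 12 genes that were higher and 15 that were lower at ZT16 (17.9% and 18.0% of all probe sets). The smallest adjusted p of these genes was 0.544, that of *Syt1*.

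*Syt1*, the calcium sensor of fast release, gave signals of 7492 and 5866 at ZT4 and of 5379 and 3349 at ZT16 in WT mice. The groups did not overlap, and the log2 difference was -0.64 (SE 0.19, limma adjusted p = 0.544, n = 2 mice per group). S1/2-/- mice gave 5220 and 5619 at ZT4 against 5218 and 5089 at ZT16, all between the extremes of WT. The size of the WT difference rested on single mice: it was -0.985 without WT ZT16 replicate 1, where it passed the test (adjusted p = 0.0132), and -0.302 with replicate 2 of that group left out.

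*Nsf*, the ATPase that takes SNARE complexes apart, gave 14811 and 12957 at ZT4 against 12474 and 9890 at ZT16 in WT mice, a log2 difference of -0.32 (SE 0.12, adjusted p = 0.625). Leaving out WT ZT16 replicate 1 gave -0.486, and leaving out replicate 2 of that group gave -0.151. Its adaptor gene *Napb* gave 3369 and 2432 at ZT4 against 2339 and 2279 at ZT16 (log2 difference -0.31, SE 0.14, adjusted p = 0.641). *Napa*, the other adaptor gene, gave 3716 and 3987 at ZT4 against 3843 and 3082 at ZT16, and here the groups overlapped (log2 difference -0.16, SE 0.11). All 3 disassembly genes were therefore lower at ZT16 in WT mice, 2 of them without overlap, and none passed the test.

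The SNAREs of the synapse had no common direction. *Vamp2*, the SNARE of the synaptic vesicle, gave 9894 and 10214 at ZT4 against 11180 and 10895 at ZT16 in WT mice (log2 difference 0.13, SE 0.10, adjusted p = 0.747). *Snap25* gave 42677 and 41129 at ZT4 against 40403 and 46756 at ZT16, so that the groups overlapped. *Stx1a* gave 4136 and 4195 at ZT4 against 3821 and 3724 at ZT16 (log2 difference -0.14, SE 0.10, adjusted p = 0.717). The 95% intervals of all 3 differences lay within a 1.5-fold change in either direction. Such narrow intervals were found for 25 of the 48 genes (52.1%) and for 41.6% of all probe sets.

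In WT 4 of the 48 differences exceeded 1.5-fold, against 7.59% of all probe sets: that of *Syt1* and 3 others. *Rab35*, a GTPase of endocytic recycling, gave 216 and 204 at ZT4 against 73.9 and 85.9 at ZT16 (log2 difference -1.40, SE 0.60, adjusted p = 0.63). Its mean log2 signal of 6.852 lay just above the filter of 6.794, which it passed only through its higher signals at ZT4. *Syngr2*, a synaptogyrin found on vesicles in many tissues, gave 234 and 103 at ZT4 against 263 and 318 at ZT16 (log2 difference 0.90, SE 0.37, adjusted p = 0.625). *Stx2*, a syntaxin of the plasma membrane, gave 195 and 376 at ZT4 against 438 and 491 at ZT16 (log2 difference 0.78, SE 0.27, adjusted p = 0.625), which was 0.302 without WT ZT4 replicate 1 and 1.25 without WT ZT4 replicate 2. The groups did not overlap for any of these 3 genes. *Snap91* was lower at ZT16 by a smaller amount, with 3007 and 2749 at ZT4 against 2291 and 2500 at ZT16 (log2 difference -0.26, SE 0.10, adjusted p = 0.625).

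WT ZT16 mouse 2 had the lowest of the 8 signals for 15 of the 48 genes and for 7 of the 14 core genes. It also had the highest signal for 10 of the 48 genes and for 2 of the core genes, so it was extreme in both directions. *Cplx2*, a complexin of cortical neurons, gave 2535 and 1946 at ZT4 but 2447 and 978 at ZT16 in WT mice, and 1889 to 2679 in the 4 S1/2-/- mice. The same mouse was also lowest for the markers *Camk2a* (210, against 610 to 934 in the other 7 mice) and *Map2* (182, against 634 to 895). Of the markers of cortical excitatory neurons it was also lowest for *Nrgn*, *Neurod6*, *Tbr1* and *Nptx1*, but not for *Fezf2* and *Lmo4*. Among general neuronal markers it was lowest for *Nefl*, *Nefm* and *Elavl4* too, but highest for *Tubb3*, *Uchl1* and *Stmn3*. Its summed signal of the 13 general neuronal markers was 59383, near the top of the range over mice. Without the other mouse of the group, WT ZT16 replicate 1, *Syt1* and *Cplx2* passed the test for ZT16 against ZT4 in WT (*Cplx2* log2 difference -1.18, adjusted p = 0.0466). In that setting the single mouse left is assumed to vary like the other groups. WT mice at ZT16 also had higher striatal and myelin marker signals than at ZT4, with medians of 1.58 and 0.41 on the log2 scale over the 5 and 7 genes tested, and 9 of 13 general neuronal markers were lower (median -0.038). Both tested choroid plexus markers were higher (3.91 and 0.349, median 2.13). The part of these markers in the differences of the vesicle genes was not tested.

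**Figure D3:**
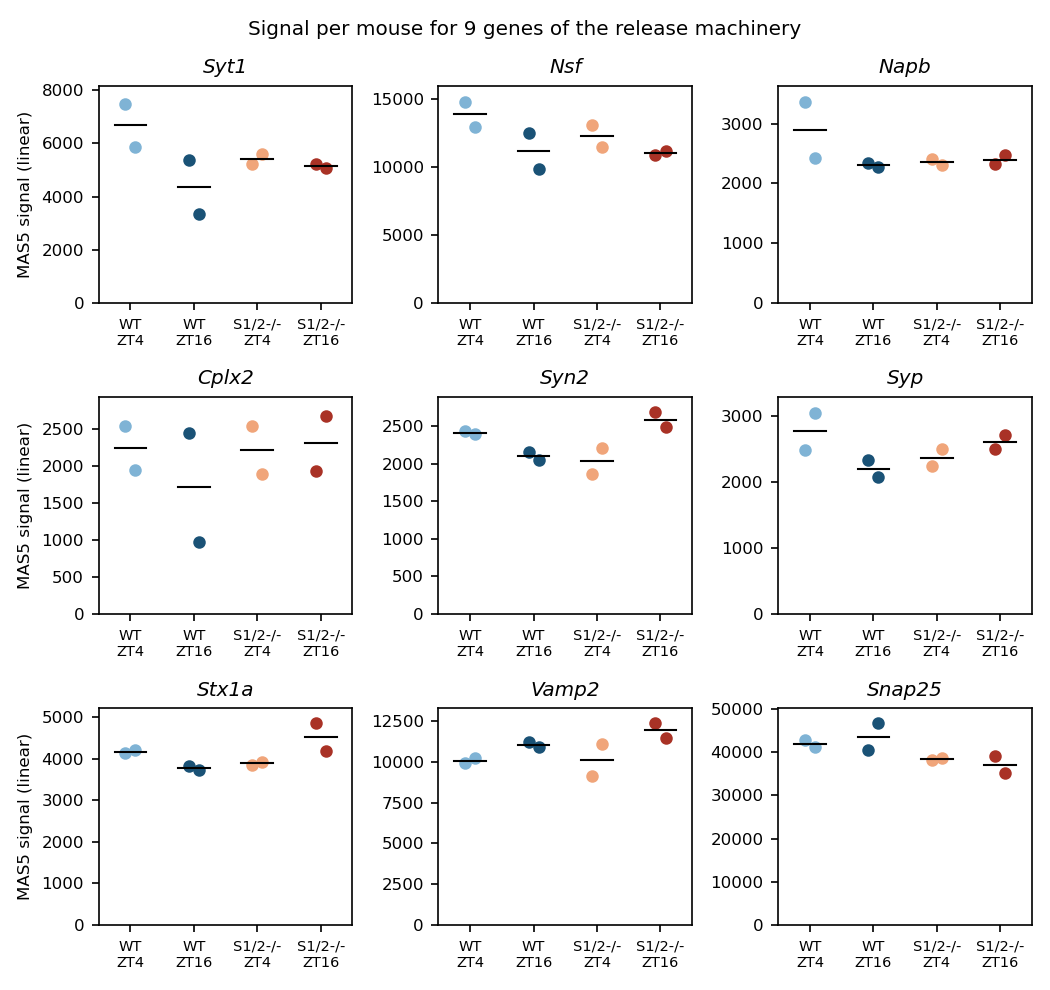
Signals of 9 genes of the release machinery in each of the 8 mice, on linear axes that start at 0. Points are mice and lines are the means of 2 mice. In WT, *Syt1* and *Nsf* are lower at ZT16 without overlap, whereas *Syn2*, *Syp* and *Stx1a* are lower at ZT16 in WT and higher at ZT16 in S1/2-/- mice.

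In S1/2-/- cortex the lean of the core genes was in the other direction. From ZT4 to ZT16, 10 of the 14 core genes were higher (median log2 difference 0.073), as were 13 of the other 34 genes (median -0.05). Per mouse the centred median of the core genes was -0.077 and -0.052 at ZT4 against -0.003 and -0.034 at ZT16. No gene was called, as was the case for 0.0% of all probe sets tested, and the lowest adjusted p of a vesicle gene was 0.539. Unadjusted p values under 0.05 belonged to 2 higher and 2 lower genes, against 4.33% and 2.98% of all probe sets. The mice of the 2 times did not overlap for 12 genes higher and 11 genes lower at ZT16, against 21.0% and 20.4%. The 95% interval lay within a 1.5-fold change for 24 of 48 genes (50%), against 41.9% of all probe sets.

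*Syn2*, a synapsin that tethers vesicles in the reserve pool, gave 1866 and 2216 at ZT4 against 2684 and 2483 at ZT16 in S1/2-/- mice (log2 difference 0.34, SE 0.11, adjusted p = 0.539, n = 2 mice per group). *Vamp2* was also higher at ZT16, with 9142 and 11099 against 12375 and 11453 (log2 difference 0.24, SE 0.10, adjusted p = 0.638). Both pairs of groups were free of overlap. *Syngr1*, the synaptogyrin of neuronal vesicles, lay lower, with 952 and 1125 at ZT4 against 806 and 607 at ZT16 (log2 difference -0.56, SE 0.20, adjusted p = 0.597). *Rab3b*, one of the Rab3 GTPases of secretory vesicles, gave 573 and 660 at ZT4 against 466 and 503 at ZT16 (log2 difference -0.34, SE 0.15, adjusted p = 0.676). *Stxbp2*, which binds syntaxins in secretory cells outside the brain, gave 351 and 340 at ZT4 against 408 and 555 at ZT16 (log2 difference 0.46, SE 0.21, adjusted p = 0.676). None of these 5 differences passed the test.

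The genotypes were then compared in their change from ZT4 to ZT16. Here a positive difference means that a gene moved further up, or less far down, in S1/2-/- than in WT mice. This was the case for 11 of the 14 core genes, with a median log2 difference of 0.187, and for 15 of the other 34 genes, with a median of -0.032. Over all 48 genes 26 were positive and 22 negative (median 0.064), against 0.01 over all probe sets. No gene was called (0.0% of all probe sets), and the lowest adjusted p was 0.701, that of *Syn2*. By unadjusted p under 0.05, 3 genes were positive and 0 negative, namely *Syn2*, *Stx1a* and *Syp*, against 2.74% and 2.95% of all probe sets. The comparison shares its samples with both comparisons over time, so that these counts are not independent of those given above. All 5 striatal and all 7 myelin markers were negative in the same comparison, with medians of -1.89 and -0.39. Both tested choroid plexus markers (-5.81 and -0.652, median -3.23) and 7 of 9 markers of inhibitory neurons (median -0.11) were negative too. Of the general neuronal markers 9 of 13 were positive (median 0.144), as were 4 of 7 of cortical excitatory neurons (median 0.054). The part of all these markers in the values of the core genes was not tested.

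For *Syn2* the times did not overlap in either genotype, since WT mice gave 2432 and 2391 at ZT4 against 2161 and 2055 at ZT16, the reverse of the order in S1/2-/- mice. The log2 difference between the genotypes in this change was 0.54 (SE 0.16, adjusted p = 0.701). *Syp*, the major membrane protein of synaptic vesicles, gave 2483 and 3047 at ZT4 against 2328 and 2070 at ZT16 in WT. In S1/2-/- mice it gave 2242 and 2491 at ZT4 against 2492 and 2712 at ZT16. Both orders were free of overlap, though in S1/2-/- mice only by 1 unit of signal, and the difference was 0.46 (SE 0.18, adjusted p = 0.827). For *Stx1a* the S1/2-/- mice gave 3858 and 3928 at ZT4 against 4864 and 4194 at ZT16, a difference between the genotypes of 0.36 (SE 0.14, adjusted p = 0.827).

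Such a reversed order was found for 5 of the 48 genes as lower in WT and higher in S1/2-/- mice at ZT16 (*Rab3il1*, *Snap47*, *Stx1a*, *Syn2* and *Syp*), against 2.79% of all probe sets. The opposite reversal was found for 1 gene, *Rab3b*, again against 2.79% of all probe sets. *Snap47*, a SNARE related to SNAP25, gave 6724 and 6391 at ZT4 against 6028 and 6296 at ZT16 in WT mice. In S1/2-/- mice it gave 5564 and 5660 at ZT4 against 5957 and 6310 at ZT16. *Rab3il1*, an exchange factor that activates Rab3A and Rab8, gave 151 and 146 at ZT4 against 127 and 106 at ZT16 in WT. In S1/2-/- mice it gave 163 and 127 at ZT4 against 164 and 198 at ZT16. In the S1/2-/- mice the signals of *Rab3il1* at ZT4 and ZT16 thus touched within 1 unit. Of these 6 genes *Rab3il1* alone had an E-box in a window shown or searched here, and *Stx1a* and *Syp* had none in the windows printed above. Of the 7 tested genes with an E-box 6 had a positive difference between the genotypes in the change with time, with a median of 0.168, and none passed the test. Over all probe sets tested 3821 of 7453 were positive, with a median of 0.01. *Napa*, *Nsf* and *Rab3il1* are among these 7 genes and were already counted above as core genes or for a reversed order.

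**Figure D4:**
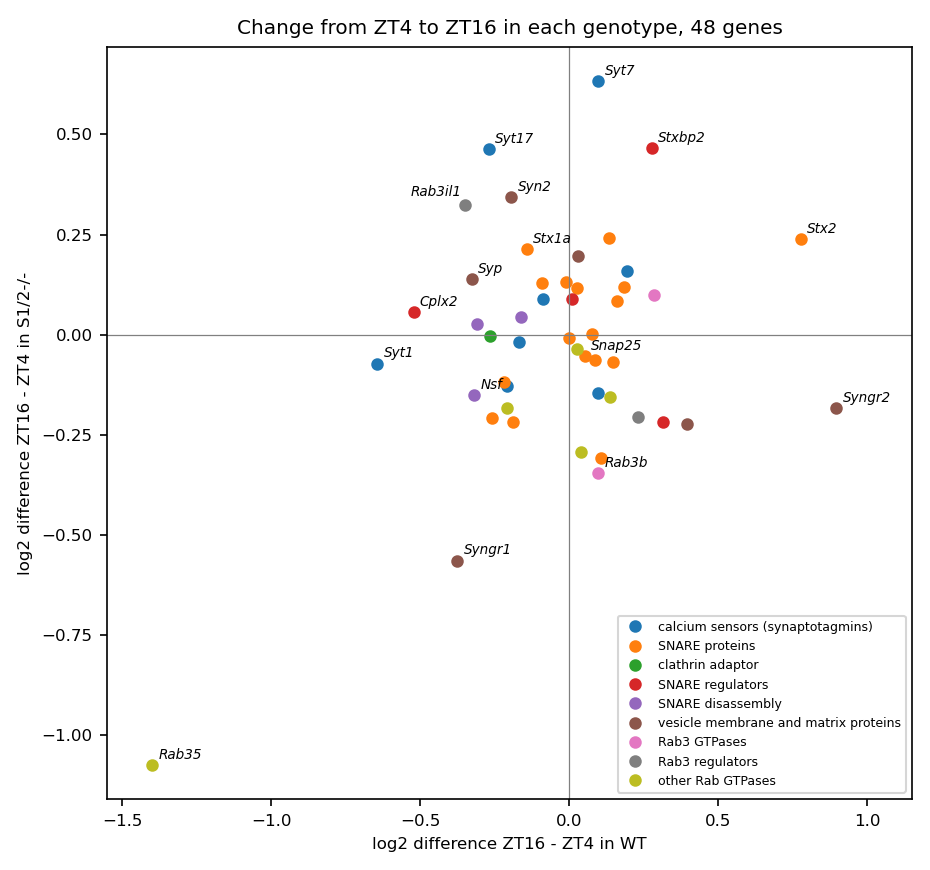
Log2 difference between ZT16 and ZT4 for the 48 genes, in WT on the horizontal and in S1/2-/- mice on the vertical axis, coloured by role. *Syn2*, *Syp*, *Stx1a* and *Rab3il1* lie in the upper left, lower at ZT16 in WT and higher in S1/2-/-, and *Rab35* lies lowest on both axes.

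Between the genotypes at ZT4 the core genes lay lower in S1/2-/- cortex: 11 were lower and 3 higher (median log2 difference -0.15). The 2 mice of each genotype did not overlap for 7 of these 14 core genes, all of them lower in S1/2-/- mice. Over all 48 genes 8 were higher and 13 lower without overlap, against 19.5% and 19.9% of all probe sets. No gene was called, against 0.0939% of all probe sets, and at an unadjusted p under 0.05 the count was 3 higher and 3 lower (4.04% and 3.25% of all probe sets). Of these, 2 exceeded 1.5-fold, as did 3.33% of all probe sets. *Napa* gave 3180 and 3229 in S1/2-/- against 3716 and 3987 in WT mice (log2 difference -0.26, SE 0.11, adjusted p = 0.666). *Napb* gave 2404 and 2304 against 3369 and 2432 (log2 difference -0.28, SE 0.14, adjusted p = 0.73). The myelin and striatal markers were higher in S1/2-/- mice at this time in all 7 and all 5 genes, and 3 of the 7 myelin genes were called. Of the general neuronal markers 10 of 13 were lower (median -0.067), as were 4 of 7 of cortical excitatory neurons (median -0.041), whereas both tested choroid plexus markers (median 0.989), 8 of 9 markers of inhibitory neurons (median 0.102) and all 6 tested markers each of astrocytes (median 0.183), microglia (0.168) and endothelium (0.301) were higher. For the choroid plexus marker *Ttr* the rise rested on 1 mouse, with 1456 and 146 in S1/2-/- against 83.2 and 331 in WT mice. The other, *Igf2*, gave 1648 and 1593 against 1248 and 1045. The part of all the markers named here in the lower signals of the core genes was not tested.

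The widest genotype difference at ZT4 belonged to *Syt17*, an atypical synaptotagmin. It gave 664 and 466 in S1/2-/- against 1055 and 1224 in WT mice, a log2 difference of -1.03 (SE 0.24, adjusted p = 0.285). *Stx2* gave 416 and 452 against 195 and 376 (log2 difference 0.68, SE 0.27, adjusted p = 0.623), and its difference was 0.205 without WT ZT4 replicate 1 and 1.16 without WT ZT4 replicate 2. *Rab34*, a GTPase of the Golgi and of macropinocytosis, gave 651 and 631 against 382 and 525 (log2 difference 0.52, SE 0.19, adjusted p = 0.585). *Snap47* was lower, with a log2 difference of -0.22 (SE 0.08, adjusted p = 0.585). All 4 pairs of groups were free of overlap.

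At ZT16 no common direction was seen among the core genes, of which 6 were lower and 8 higher in S1/2-/- mice (median 0.081). Over all 48 genes 25 were lower and 23 higher, and 0 were called, against 0.0134% of all probe sets. At an unadjusted p under 0.05, 2 were higher and 3 lower, against 5.73% and 5.21% of all probe sets. Without overlap 10 were higher and 11 lower, against 21.0% each way. *Stx1a* was higher in S1/2-/- mice by 0.26 on the log2 scale (SE 0.10, adjusted p = 0.378) and *Syn2* by 0.29 (SE 0.11, adjusted p = 0.391). *Rab3b* was lower, with 466 and 503 in S1/2-/- against 626 and 680 in WT mice (log2 difference -0.43, SE 0.15, adjusted p = 0.367). *Snap25* was lower as well, with 39059 and 35071 against 40403 and 46756 (log2 difference -0.23, SE 0.08, adjusted p = 0.376). Without WT ZT16 replicate 1 the log2 difference was 1.22 for *Cplx2* and 0.62 for *Syt1*, higher in S1/2-/- mice. Both were then set against the single WT mouse that was low for these genes. With all 8 arrays, all 7 tested myelin markers were higher in S1/2-/- mice at ZT16 (median 0.484). So were 10 of 13 general neuronal markers (median 0.04) and 5 of 6 astrocyte markers (median 0.292). Lower were 4 of 5 striatal markers (median -0.436) and both tested choroid plexus markers (-4.33 and -0.148). The part of all these markers in the differences of the vesicle genes at ZT16 was not tested.

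Averaged over both times, no vesicle gene passed the test between the genotypes. Of 48 genes 29 were lower and 19 higher in S1/2-/- cortex (median log2 difference -0.03), against 0.002 over all probe sets. Called genes numbered 0, against 0.255% of all probe sets, and the lowest adjusted p was 0.192. By unadjusted p under 0.05, 2 were higher and 4 lower (6.44% and 5.94% of all probe sets), and 1 of these exceeded 1.5-fold (2.51% of all probe sets). The 95% interval lay within a 1.5-fold change for 33 of the 48 genes (68.8%), against 63.5% of all probe sets. Among the synaptic SNAREs and their partners, *Vamp2* differed by 0.06 (95% interval -0.10 to 0.21), *Syp* by 0.01 (-0.19 to 0.21), *Nsf* by -0.09 (-0.28 to 0.10) and *Syt1* by -0.01 (-0.31 to 0.29).

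*Syt17* had the smallest p of the set. All 4 S1/2-/- mice (466 to 788) lay below 3 of the 4 WT mice (1055 to 1224), while WT ZT16 mouse 1 gave 728. The log2 difference of -0.67 (SE 0.17, adjusted p = 0.192, n = 4 mice per genotype) did not pass the test. Without that WT mouse it was -0.853 with an adjusted p of 0.0212, past both thresholds, and over all arrays left out in turn it ranged from -0.853 to -0.478.

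*Snap25*, the plasma membrane SNARE of the neuron, gave 35071 to 39059 in the 4 S1/2-/- mice and 40403 to 46756 in the 4 WT mice. The genotypes did not overlap, and the log2 difference was -0.18 (SE 0.06, adjusted p = 0.297), with a 95% interval from -0.31 to -0.04, which lies within 1.5-fold. *Snap25* was the 1 of 48 genes that was lower in all S1/2-/- mice, against 3.74% of all probe sets. *Rab31*, a GTPase of transport between the trans-Golgi network and endosomes, was the 1 gene that was higher in all of them, against 3.43% of all probe sets. It gave 761 to 934 in S1/2-/- and 633 to 685 in WT mice (log2 difference 0.35, SE 0.11, adjusted p = 0.273). A second *Rab31* probe set overlapped between the genotypes, with a log2 difference of 0.21 (SE 0.17, adjusted p = 0.648) over both times and of -0.07 at ZT16. *Stx12*, an endosomal syntaxin, gave 1284 to 1701 in S1/2-/- and 1648 to 2008 in WT mice, with a small overlap (log2 difference -0.28, SE 0.09, adjusted p = 0.267). The myelin markers were higher in S1/2-/- mice in 7 of 7 genes, 4 of them called. Striatal markers were higher in 5 of 5 tested genes (median 0.51) and endothelial markers in 6 of 6 (median 0.141). Astrocyte markers were higher in 5 of 6 genes, 1 of them called, and microglial markers also in 5 of 6. Of the general neuronal markers 8 of 13 were lower (median -0.018), whereas 5 of 7 of cortical excitatory neurons were higher (median 0.191). The part of all these markers in the differences of *Syt17*, *Snap25*, *Rab31* and *Stx12* was not tested.

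**Figure D5:**
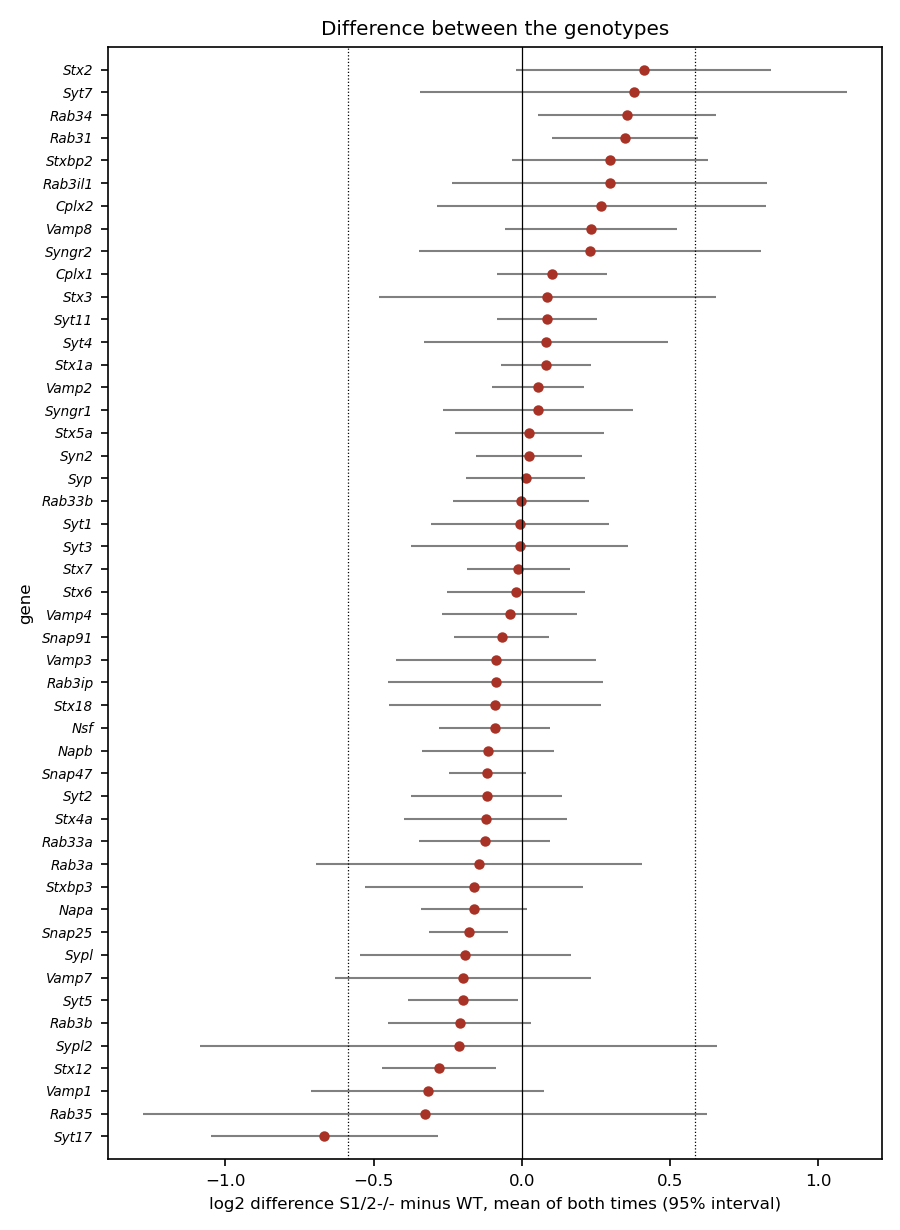
Log2 difference between S1/2-/- and WT mice over both times for the 48 genes, sorted, with 95% intervals from limma. Dotted lines mark a 1.5-fold change. *Syt17* lies lowest at -0.67, and the intervals of 33 genes stay within the dotted lines.

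Averaged over both genotypes, 24 genes were lower and 24 higher at ZT16 (median 0.0 on the log2 scale). Called genes numbered 0, as for 0.0% of all probe sets, and the lowest adjusted p was 0.407. By unadjusted p under 0.05, 3 genes were higher and 6 lower, against 5.34% and 4.04% of all probe sets, and 1 of them exceeded 1.5-fold (2.04% of all probe sets). The 95% interval lay within 1.5-fold for 38 of the 48 genes (79.2%), against 65.5% of all probe sets. In 3 genes all 4 ZT16 mice lay below all 4 ZT4 mice, against 2.28% of all probe sets, and in 0 genes all lay above, against 2.78%. The 3 genes were *Stx7*, *Syngr1* and *Syt11*. *Stx7*, a syntaxin of late endosomes, gave 2348 to 2661 at ZT4 and 2038 to 2247 at ZT16 (log2 difference -0.24, SE 0.08, adjusted p = 0.407). *Syngr1* gave 863 to 1125 at ZT4 and 606 to 854 at ZT16 (log2 difference -0.47, SE 0.14, adjusted p = 0.407). *Syt11*, a synaptotagmin without calcium binding, gave 4386 to 4810 at ZT4 and 3514 to 4286 at ZT16 (log2 difference -0.17, SE 0.08, adjusted p = 0.538). *Rab35* had a log2 difference of -1.24 (SE 0.43, adjusted p = 0.417), and its signal in S1/2-/- ZT4 mouse 2, 74.0, lay among those of the ZT16 mice, 59.6 to 85.9. It was the gene past 1.5-fold here, and it passed the filter only through its higher signals at ZT4.

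For genes with several probe sets the differences did not always have the same sign. For *Vamp8*, the SNARE of lysosome-related and secretory granules, the probe set used gave 349 to 401 in the 4 WT mice and 393 to 476 in the 4 S1/2-/- mice. A second *Vamp8* probe set gave 142 to 226 in the WT mice, 210 and 158 in S1/2-/- mice at ZT4, but only 56.8 and 68.4 in those at ZT16. Averaged over the times they differed between the genotypes by 0.23 and by -0.87, in opposite directions. The suffix of both marks probes shared within a family of sequences. For *Rab33b*, a Golgi GTPase, the probe set used carries the same suffix and differed by 0.00 as rounded. A second without that suffix differed by 0.52 (SE 0.22, limma adjusted p = 0.374). Those of *Vamp2* (0.06 and 0.21), *Vamp1* (-0.32 and -0.41) and *Napb* (-0.12 and -0.03) had the same sign.

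Genes that act with the vesicle machinery were described from a list of 84 partners, of which 48 were on the array and 46 were tested. They cover the active zone and priming, endocytosis and recycling, transmitter loading with the vesicular proton pump, and tethering. None was called in any of the 7 comparisons. From ZT4 to ZT16 in WT 30 were lower and 16 higher (median -0.046), and in S1/2-/- mice 26 were lower and 20 higher (median -0.026). In the difference between these changes 5 were positive and 0 negative at an unadjusted p under 0.05, against 2.74% and 2.95% of all probe sets. Between the genotypes at ZT4 13 were higher and 33 lower in S1/2-/- mice, and at ZT16 21 were higher and 25 lower, where 7 of the higher and 2 of the lower had an unadjusted p under 0.05, against 5.73% and 5.21% of all probe sets.

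*Ap2a1*, a subunit of the clathrin adaptor AP-2, gave 798 and 722 at ZT4 against 630 and 612 at ZT16 in WT. In S1/2-/- mice it gave 620 and 617 at ZT4 against 928 and 916 at ZT16. The difference between the genotypes in this change was 0.87 (SE 0.19, adjusted p = 0.465). *Atp6v0a1*, a subunit of the proton pump that acidifies vesicles, gave 1900 and 1815 at ZT4 against 1713 and 1251 at ZT16 in WT, but 1639 and 1748 against 2593 and 2093 in S1/2-/- mice (difference 0.80, SE 0.23, adjusted p = 0.634). Both had the order seen for *Syn2*, *Syp* and *Stx1a*, lower at ZT16 in WT and higher at ZT16 in S1/2-/- mice. They were named for the largest moderated statistics of the partners in this comparison, so the shared order is no separate evidence. Of all probe sets 2.79% had this order. *Sh3gl3*, an endophilin that takes part in endocytosis, gave 490 to 797 in WT and 948 to 1183 in S1/2-/- mice over both times (log2 difference 0.73, SE 0.16, adjusted p = 0.116), the smallest adjusted p of the partners in that comparison. *Atp6v1e1*, another proton pump subunit, gave 4753 to 5510 in WT and 4165 to 4563 in S1/2-/- mice (log2 difference -0.27, SE 0.07, adjusted p = 0.213).

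The 9 genes below the filter were fitted without it. Their signals lay between 10.7 and 191, where the tenth percentile of an array was 15.2 to 17.4. *Syt9*, a synaptotagmin of dense-core and synaptic vesicle release, gave 60.4 and 79.8 in WT mice at ZT4 against 12.6 to 45.4 in the other 6 mice. *Syt10*, the sensor of growth factor release in olfactory neurons, gave 10.7 to 85.6 with overlap of the groups. None of the 9 was called in that fit.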

How the data were processed

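Cortex from coronal slices of 8 mice was measured on 1 array each (4 groups of 2). Per the labels, RNA was extracted with Trizol (5 µg per array); the methods name RNeasy columns. The authors deposited 1 table of linear signal intensity values condensed with MAS5, with 12488 probe sets and a mean of 500 per array after 2% trimming; no MAS5 version is given in the sources used here. The annotation of the array named the probe sets (10833 with 1 symbol, 396 with several, 1193 without). No symbol of the 57 genes was changed by the gene identifiers of GRCm38.p6.

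Control probe sets (66) were left out, 64 values under 1 were raised to 1 before taking log2. Those with mean log2 of at least 6.794 (40th percentile) were tested (7453 of 12422 probe sets). The 4 group means were fitted to all 8 arrays with limma 3.58.1 (R 4.3.3, intensity trend, 4 residual and 6.02 prior degrees of freedom), giving 7 comparisons. A call needed a fold over 1.5 and a Benjamini-Hochberg adjusted p under 0.05 over all 7453. The fit was tested on simulated data.

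The genes, lists and tests were chosen with earlier results of these data known. Named were the core machinery, the 4 genes with the largest moderated statistic in each comparison, and those with the highest or lowest signals. Genes whose groups did not overlap, *Cplx2* in single mice, *Stxbp2*, *Syngr2*, *Syt11* and the second probe sets were named after their values were seen. Mice are individuals, and the number of arrays limits the precision. Alternatives were no filter, a 60th percentile filter, quantile normalization, median centring, log2(signal + 16), no intensity trend, unadjusted p, a test per probe set without moderation (which the methods name only for time), the mean of all probe sets of a gene, plain _at probe sets, the replicate number as a block, and each array left out.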

Additional observations from a re-analysis of the deposited data

Results flagged for a closer look

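*Rab3il1*, *Snap47*, *Stx1a*, *Syn2* and *Syp* gave lower signals in both WT mice taken at ZT16 than in both taken at ZT4, and higher signals in both S1/2-/- mice taken at ZT16 than in both taken at ZT4, while *Rab3b* had the opposite order. The log2 difference between the genotypes in the change from ZT4 to ZT16 was 0.677 for *Rab3il1*, 0.217 for *Snap47*, 0.357 for *Stx1a*, 0.539 for *Syn2*, 0.463 for *Syp* and -0.443 for *Rab3b*. This difference was tested with limma for each gene and passed for none of the 6, with adjusted p values from 0.701 for *Syn2* to 0.912 for *Rab3il1*. All 5 tested striatal markers, all 7 myelin markers and both tested choroid plexus markers had a negative value in the same comparison. Of the general neuronal markers 9 of 13 had a positive value (median 0.144). The part of all these markers in the values of the 6 genes was not tested.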

How the results depend on the processing

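No vesicle gene was called in any comparison with all 8 arrays, under quantile normalization, median centring, other filters, a pseudocount of 16, no intensity trend, a test per probe set without moderation (which the methods name only for time) or the mean of probe sets. With unadjusted p and the fold threshold, 4 genes passed for WT time, 2 for the genotypes at ZT4, 1 for the genotypes over both times and 1 for time over both genotypes. Leaving out 1 array gave 0 to 2 calls for WT time, 0 to 2 for the genotypes at ZT16, 0 to 1 for the genotypes over both times and 0 in the other 4 comparisons. All of these calls came without WT ZT16 replicate 1 (*Syt1*, *Cplx2* and *Syt17*).

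The median log2 difference of the genes lay near 0, and its sign changed with the setting in several comparisons but not for the genotypes at ZT4. For WT time it was 0.004 at the 60th percentile and with plain _at probe sets, -0.003 for the mean of probe sets, 0.042 with median centring, 0.0 without a filter and 0.003 with quantile normalization (-0.067 to 0.017 with 1 array left out). For S1/2-/- time it was -0.049 for the mean of probe sets, -0.051 with median centring and 0.014 without a filter (-0.035 to -0.005). For the difference in the change it was 0.037 at the 60th percentile, -0.005 with median centring and 0.082 without a filter (-0.017 to 0.085). For the genotypes at ZT4 it was -0.069 with median centring (-0.063 to -0.013), and at ZT16 -0.109 with median centring, 0.029 without a filter and 0.009 with quantile normalization (-0.059 to 0.018). Over both times it was -0.054 at the 60th percentile, -0.052 for the mean of probe sets, -0.098 with median centring and -0.02 without a filter (-0.066 to 0.002). For time over both genotypes it was -0.039 for the mean of probe sets and -0.01 with median centring (-0.044 to 0.01). Median centring also shifted the median of all probe sets, to -0.096 for the genotypes at ZT16.

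The replicate numbers did not pair the mice, as deviations of same-numbered mice correlated at -0.001 to 0.098 across probe sets. With the replicate number as a block 0 vesicle genes were called in all 7 comparisons, with medians of 0.017 for WT time and -0.036 for the genotypes at ZT4. Of 28 results for single genes over 531 alternatives, 523 kept their direction and side of the threshold, 8 passed it and 0 reversed. Plain _at probe sets were chosen after seeing the data. With 2 mice per group a missing call does not exclude a change, and low signal limits the 9 genes below the filter. Of these *Snap23*, with a mean log2 signal of 6.791, lay just under the filter of 6.794.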
